A study of Mus musculus with 7 samples.

Results

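The genes described here are 10 genes of the actin cytoskeleton (Actb, Actg1, Cfl1, Pfn1, Tmsb4x, Tmsb10, Arpc2, Arpc1b, Myl6 and Coro1a), out of 55487 genes counted in the nascent RNA of mouse blood stem cell precursors. The genes were given as a list of symbols and matched to the Ensembl identifiers of the count table, and each symbol matched 1 identifier. Actb was chosen by its lower level in both treated groups, so its values against the washout are given as a description and carry no test. The cells were GFI1+ IAHC, the CD31+cKIT+GFI1+ cells of the intra-aortic hematopoietic clusters, sorted from the AGM (the aorta, gonad and mesonephros region) of E11.5 embryos, whose strain is labelled CD1/Gf1+ and carries the Gfi1:tomato reporter. The labels call these cells hematopoietic stem cells. All groups were first held overnight in compE (compound E), a γ-secretase inhibitor that stops the release of the active Notch fragment, then washed and divided into sets of 300 to 400 cells. Each set was cultured for 4 h in methylcellulose with the uridine analog EU, which labels newly made RNA. The Fc-JAG1 group (2 libraries, numbered 1 and 3) received recombinant Fc-JAG1, the compE group (2 libraries, 1 and 2) received compE again, and the washout group (3 libraries, 1, 2 and 3) received DMSO only. The labels call the numbers embryos, while the paper describes independent experiments, each on cells from pooled embryos. The overnight inhibitor is shared by all groups, the washout included.

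Actin exists as free monomers and as filaments, and a cell moves, divides and holds its shape by turning 1 form into the other. Profilin feeds monomers to growing ends, the β-thymosins hold monomers in reserve, cofilin cuts and dissolves old filaments, the Arp2/3 complex starts branches, coronin regulates branches and turnover, and myosin II pulls on the filaments. In cells of the blood lineage the Arp2/3 subunit ARPC1B and coronin 1A are the prevailing forms of their families. Several actin genes are targets of SRF, a transcription factor that binds the CArG box and responds to the pool of free actin through its MRTF cofactors.

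The libraries held 21652927 to 33974693 counts. They differed widely in how many genes were seen: 11600 and 8006 genes reached at least 10 counts in Fc-JAG1 1 and 3, 8096 and 12083 in compE 1 and 2, and 6265, 12351 and 7585 in the washout libraries 1, 2 and 3. Fc-JAG1 1, compE 2 and washout 2 were thus the gene-rich library of their group, and washout 1 had the fewest genes. Kit, which was used for the sort, had 218 to 599 CPM (its count as a rate on the library's total count) in the libraries, while Gfi1, also a sort gene, was at 0 counts in 4 of them. Pecam1 (CD31), the third sort gene, had 11 counts in Fc-JAG1 3, 18 in washout 1 and at least 1186 in the other 5. The 10 endothelial markers, of which 4 could be tested, summed to 35.3 and 102.2 CPM of total counts in Fc-JAG1 1 and 3, 190 and 166 in compE 1 and 2, and 245, 65.3 and 136 in the washout libraries. Of them Cdh5 reached 139 counts in washout 1 and 0 to 3 elsewhere. Of the 4 tested, DESeq2 called Tie1 and Gja5 lower with Fc-JAG1 than in the washout, as it did 5.11% of all eligible genes. Gja5 had 0 counts in both Fc-JAG1 libraries and 3, 49 and 41 in the washout. Tek and Flt1, also tested, went the other way, with edgeR log2 fold changes of 5.32 and 0.99. The part of the endothelial markers in the values of the actin genes was not tested. The 10 actin cytoskeleton genes took 0.751% and 0.354% of all counts in Fc-JAG1 1 and 3, 0.548% and 0.572% in compE 1 and 2, and 0.569%, 0.829% and 0.868% in the washout libraries. Since cells of a type and RNA per cell enter these bulk libraries together, a lower share of cells and less RNA per cell cannot be told apart.

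Most of the members were captured in every library. All 10 passed the filter of at least 10 counts in at least 2 libraries of 1 group, 9 of the 10 had at least 10 counts in all 7 libraries (29.4% of the 10311 genes tested did), and the counts of Actb, Cfl1, Pfn1, Tmsb4x, Arpc2 and Arpc1b were at 1073 or more in every library. The SD of log2 CPM (from here on TMM-scaled CPM unless total counts are named, and with a prior count of 2 in the log) over the 7 libraries was 3.41 for the median gene tested. It was 0.43 for Tmsb4x, 0.46 for Pfn1, 0.67 for Arpc1b, 0.70 for Cfl1, 0.70 for Actb and 0.75 for Myl6, and for each of these at least 93.6% of genes tested had a larger SD. Arpc2 followed with 1.20, and Tmsb10, Coro1a and Actg1 varied most, with 2.07, 2.10 and 2.61. Of these 6 steady genes, Actb, Pfn1, Tmsb4x and Arpc1b were also among the most counted. The SDs were compared with those of all genes tested, not with those of genes of like counts.

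Per kilobase of the longest coding transcript, the highest median level over the 7 libraries was that of Pfn1, with 1515 CPM per kb. Tmsb4x with 1048 and Actb with 1035 CPM per kb came next, and the ranges of these 3 genes over the libraries overlapped. Arpc2 had 455, Coro1a 399 and Arpc1b 251 CPM per kb, again with overlapping ranges. Cfl1 had 56.9, Tmsb10 27.6, Myl6 16.2 and Actg1 1.44 CPM per kb. The study counted reads with the gene as feature, and per kilobase of gene body the order began with Actb (546 CPM per kb), Pfn1 (467) and Tmsb4x (407), while Arpc2, whose gene spans 32126 bases, had 20.4 CPM per kb. Myl6 and Actg1 were the lowest by either length.

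Actb encodes β-actin, the main actin of non-muscle cells, and lies on chromosome 5 (ENSMUSG00000029580, GRCm38 142903115 to 142906754, minus strand). It had 1987 and 692 CPM in Fc-JAG1 1 and 3, 1205 and 1114 CPM in compE 1 and 2, and 2629, 2210 and 2233 CPM in washout 1, 2 and 3. All 4 treated libraries were below all 3 washout libraries on this scale, with Fc-JAG1 1 closest to them and Fc-JAG1 3 lowest. The means were 1340 ± 916 CPM with Fc-JAG1 (SD, n = 2), 1159 ± 64.4 CPM with compE (SD, n = 2) and 2358 ± 236 CPM in the washout (SD, n = 3). The fitted log2 fold change was −0.97 for Fc-JAG1 over washout and −1.24 for compE over washout. Both comparisons share the washout libraries.

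The separation of Actb was not the same on every scale. When scaled by total counts alone, Actb had 2214 and 620 CPM of total counts with Fc-JAG1 (1 and 3), and the washout libraries had 2091, 2653 and 1978, so Fc-JAG1 1 lay inside the washout range. The compE libraries, with 1072 and 1270 CPM of total counts, stayed below it. In the gene-rich library of each group, Actb had 1987 CPM with Fc-JAG1, 1114 CPM with compE and 2210 CPM in the washout, which is 0.899 of the washout with Fc-JAG1 and 0.504 of it with compE. Without Fc-JAG1 3 or washout 3 the log2 fold change for Fc-JAG1 over washout was −0.37, and without Fc-JAG1 1 it was −1.69. No other library is numbered 3 and the fit has a term for the number. Leaving out either of these therefore removes the other from this contrast too. For compE over washout it stayed between −1.48 and −1.01 whichever library was left out. Between the treatments, the log2 fold change of Fc-JAG1 over compE was 0.27, and Fc-JAG1 1 and 3 lay on either side of both compE libraries. The low values of both treated groups entered the choice of the gene, so this value too is a description and carries no test.

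**Figure D1:**
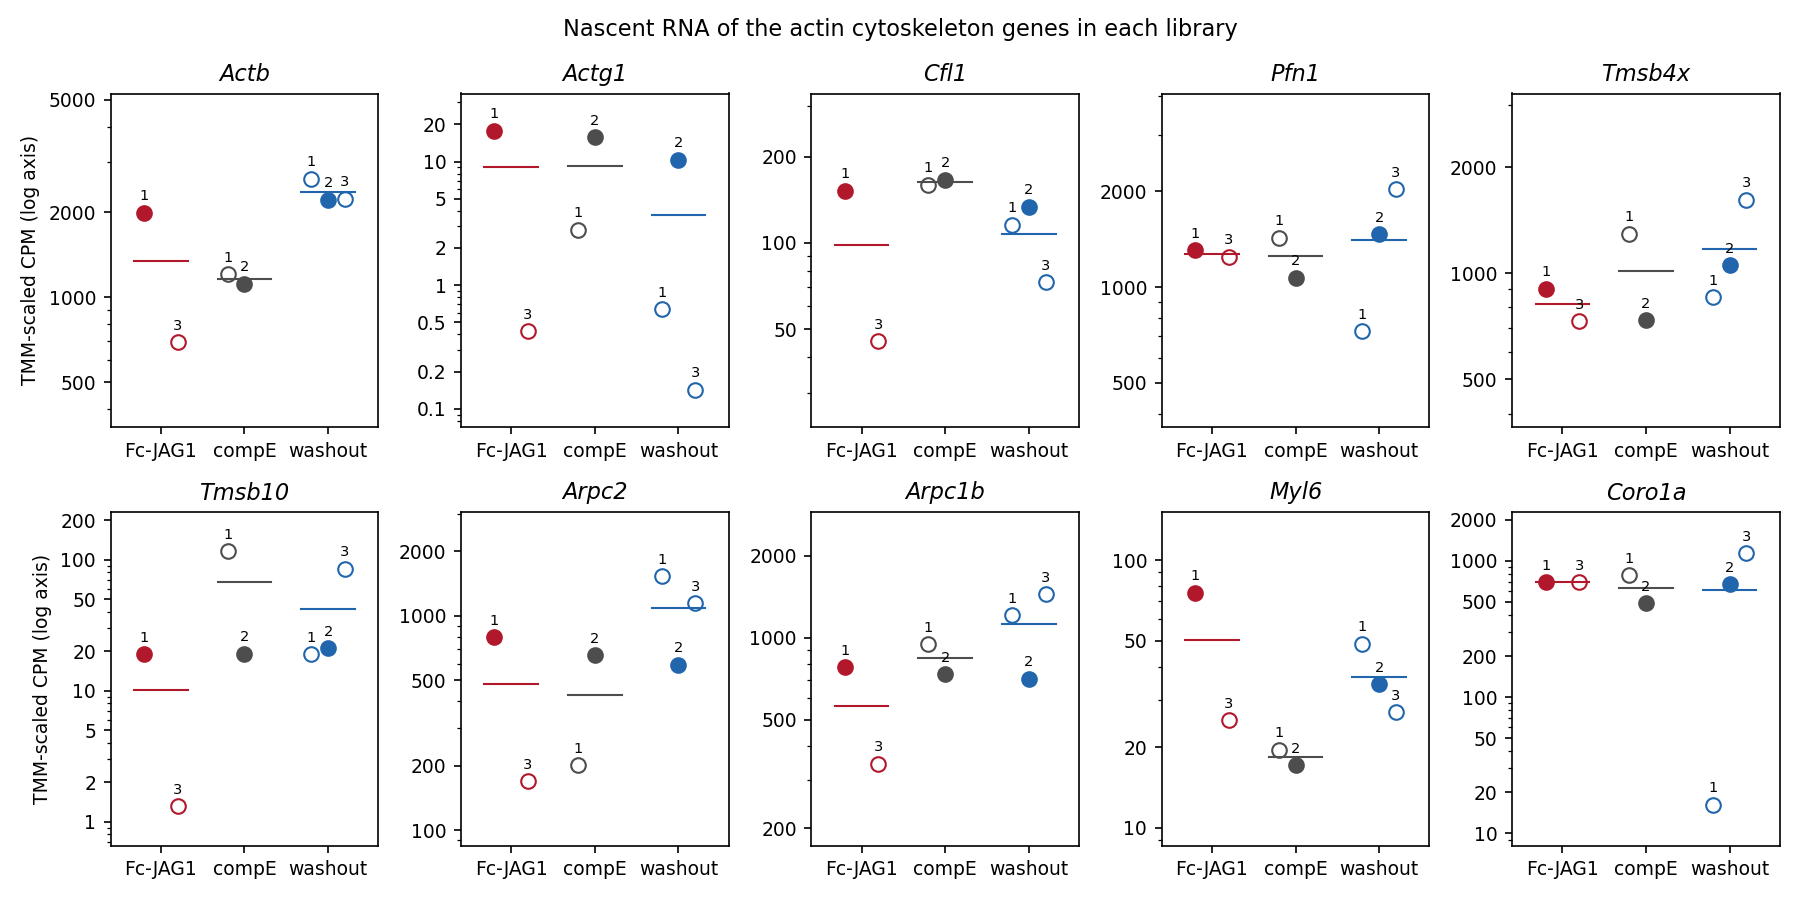
TMM-scaled CPM (log axis) of each of the 10 genes in Fc-JAG1, compE and washout libraries. Points are libraries with their number, lines are group means, and filled points mark the gene-rich library of each group. Actb is lower in the 4 treated libraries than in the 3 washout libraries, and the lone low points of Coro1a (washout 1) and Tmsb10 (Fc-JAG1 3) stand far from their groups.

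Actg1 encodes γ-actin, the other cytoplasmic actin, and lies on chromosome 11 (ENSMUSG00000062825, 120345690 to 120348542, minus strand). It had 646 and 10 counts in Fc-JAG1 1 and 3, 71 and 608 counts in compE 1 and 2, and 11, 372 and 4 counts in washout 1, 2 and 3. Its gene-rich library was the highest of each group, and its groups overlapped. The ratio of Actg1 to Actb counts was 0.0141 at most, in compE 2. Its log2 fold change was 3.71 ± 2.72 (SE) for Fc-JAG1 over washout, with a 95% interval from −1.91 to 9.32, and 0.88 ± 2.14 (SE) for compE over washout. The first was 1.54 without Fc-JAG1 1 and 1.19 with no replicate block.

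Reads of 50 bases were sequenced, and only uniquely mapped ones were counted. The study trimmed them and let them align over part of their length with a mismatch. Exact windows of 50 bases may thus miss sequence shared by shorter alignments. Actg1 shares much of its sequence with other genes. Of the 1903 windows of 50 bases in its longest coding transcript, 56.7% also occur in another annotated gene, and 51.1% occur in the processed pseudogene Gm12715 on chromosome 4 alone. Only 1.58% occur in Actb. Gm12715 itself had 1 to 29 counts in the libraries. A share of 43.5% of windows was found elsewhere for Tmsb10, 42.2% for Arpc1b, 23.0% for Cfl1, 18.5% for Myl6, 14.2% for Actb, and 0.216% for Arpc2, while Pfn1, Tmsb4x and Coro1a shared none. Of the windows of Arpc1b, 28.9% lie in Pdap1, a gene that overlaps it on the opposite strand, and of those of Cfl1 16.2% lie in Snx32, which also overlaps it. Coro1a overlaps Bola2 by its gene boundaries without sharing a window. The part of shared sequence in these levels was not tested, and the counting is not stated to use strand.

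**Figure D2:**
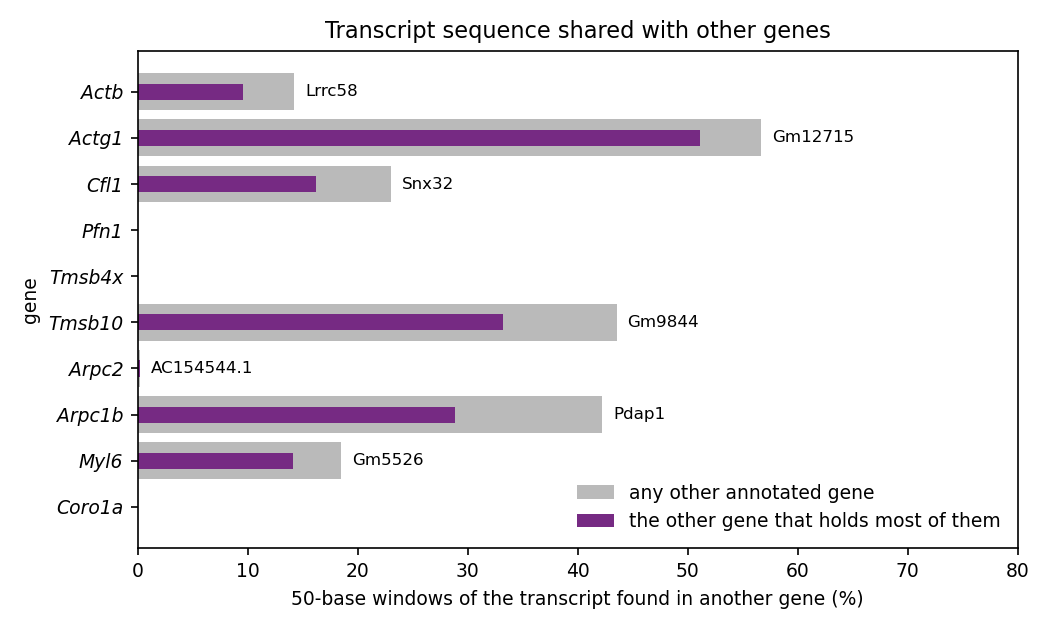
Percentage of the 50-base windows of each gene's longest coding transcript that are found in any other annotated gene (grey) and in the 1 other gene holding most of them (purple, named). Actg1 has the largest share, 56.7%, and Pfn1, Tmsb4x and Coro1a have none.

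Among 9 members with a promoter window in RefSeq (GRCm38.p6, 250 bases before to 50 after each start, 13 windows), 2 held a CArG box on either strand, Actg1 and Myl6, as did 1.63% of 32851 promoter windows. No window was available for Actb, so its promoter was not scanned. The motif TATAAA was in none of the 13 windows (13.6% of all windows), CCAAT was in 3 (37.4%) and GGGCGG was in 12 of 13 (35.7%), both strands read in each case. In Actg1, 2 of the GGGCGG matches overlap each other. The 250 bases upstream of both CArG promoters are shown because the CArG box is the site that SRF binds. The capitals mark the CArG box, which starts 90 bases before the start of Actg1 and 50 bases before that of Myl6. They are at chr11:120348496-120348745 and chr10:128493010-128493259, both on the minus strand.
Actg1: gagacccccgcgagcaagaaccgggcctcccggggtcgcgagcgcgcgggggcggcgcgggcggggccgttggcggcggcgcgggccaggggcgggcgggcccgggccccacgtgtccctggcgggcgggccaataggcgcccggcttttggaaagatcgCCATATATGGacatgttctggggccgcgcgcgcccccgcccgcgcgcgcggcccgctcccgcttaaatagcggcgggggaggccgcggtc
Myl6: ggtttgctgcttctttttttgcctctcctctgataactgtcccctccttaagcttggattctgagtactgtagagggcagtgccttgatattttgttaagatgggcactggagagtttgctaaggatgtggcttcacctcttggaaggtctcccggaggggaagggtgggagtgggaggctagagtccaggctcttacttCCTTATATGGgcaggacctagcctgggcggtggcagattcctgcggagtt

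A match says only that these letters are present. Both promoters belong to low members of the set, Actg1 at 0.143 to 17.7 CPM and Myl6 at 17.1 to 75.6 CPM.

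Of the genes that bind actin monomers, Pfn1 and Tmsb4x were the steadiest. Pfn1, profilin 1 (ENSMUSG00000018293, chromosome 11, 70651850 to 70654644), had 1304 and 1246 CPM in Fc-JAG1 1 and 3, 1432 and 1071 CPM in compE 1 and 2, and 726, 1467 and 2030 CPM in washout 1, 2 and 3. The treated libraries all lay inside the range of the washout, whose own libraries were the lowest and the highest. Its fitted log2 fold change was −0.11 ± 0.46 (SE) for Fc-JAG1 over washout and 0.06 ± 0.45 (SE) for compE over washout, with 95% intervals from −1.05 to 0.83 and from −0.88 to 1.00. The first value was 0.12 when scaled by total counts, and the second was −0.040 with DESeq2's size factors.

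Tmsb4x, thymosin β4, which sequesters monomers (ENSMUSG00000049775, chromosome X, 167207093 to 167209315), had 905 and 732 CPM in Fc-JAG1 1 and 3, 1295 and 736 CPM in compE 1 and 2, and 855, 1054 and 1620 CPM in washout 1, 2 and 3. Its highest library was washout 3 and its lowest Fc-JAG1 3, and the groups overlapped. The log2 fold change was −0.66 ± 0.55 (SE) for Fc-JAG1 over washout, with a 95% interval from −1.80 to 0.47, and −0.11 ± 0.54 (SE) for compE over washout, with an interval from −1.24 to 1.01.

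Tmsb10, thymosin β10, a close relative of Tmsb4x (ENSMUSG00000079523, chromosome 6, 72957347 to 72958748), behaved in another way. It had 18.9 and 1.31 CPM in Fc-JAG1 1 and 3, 115 and 19.1 CPM in compE 1 and 2, and 18.9, 21.0 and 85.5 CPM in washout 1, 2 and 3. A set of 4 libraries from all 3 groups sat between 18.9 and 21.0 CPM, compE 1 and washout 3 were high, and Fc-JAG1 3, with 31 counts, was low. The Fc-JAG1 libraries were both below the washout, but Fc-JAG1 1, at 688 counts, had almost the CPM of washout 1. Its fitted log2 fold change was −2.85 ± 3.10 (SE) for Fc-JAG1 over washout and 0.31 ± 2.77 (SE) for compE over washout. The first rests on the libraries numbered 3: without Fc-JAG1 3 or washout 3 it was −0.88.

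Cfl1, cofilin 1, which severs and depolymerizes filaments (ENSMUSG00000056201, chromosome 19, 5490455 to 5495201), had 152 and 45.4 CPM in Fc-JAG1 1 and 3, 160 and 166 CPM in compE 1 and 2, and 116, 134 and 72.8 CPM in washout 1, 2 and 3. Both compE libraries were above all washout libraries, and both were above the Fc-JAG1 libraries. The compE mean was 163 ± 4.70 CPM (SD, n = 2) and the washout mean 107 ± 31.4 CPM (SD, n = 3). The log2 fold change of compE over washout was 0.24 ± 2.06 (SE), with a 95% interval from −4.02 to 4.51, and that of Fc-JAG1 over washout was −0.11 ± 2.04 (SE). On the scales of total counts and of DESeq2's size factors, the compE and washout libraries of Cfl1 overlapped.

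Both Arp2/3 subunits had lower fitted levels with either treatment. For Arpc2, 1 library of each treatment set most of this. Arpc2, a core subunit that helps to hold the complex on the mother filament (ENSMUSG00000006304, chromosome 1, 74236084 to 74268209), had 797 and 169 CPM in Fc-JAG1 1 and 3, 201 and 655 CPM in compE 1 and 2, and 1528, 592 and 1149 CPM in washout 1, 2 and 3. Fc-JAG1 3 and compE 1 were far below all others, and the gene-rich libraries, at 797, 655 and 592 CPM, did not share the order of the groups. The log2 fold change was −1.34 ± 0.82 (SE) for Fc-JAG1 over washout and −1.64 ± 0.99 (SE) for compE over washout, with 95% intervals from −3.04 to 0.35 and from −3.68 to 0.41. Without Fc-JAG1 3 or washout 3 the first was −0.37, and without compE 1 the second was 0.13.

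Arpc1b, the form of the ARPC1 subunit that prevails in blood cells (ENSMUSG00000029622, chromosome 5, 145114215 to 145130705), had 780 and 345 CPM in Fc-JAG1 1 and 3, 946 and 733 CPM in compE 1 and 2, and 1211, 707 and 1446 CPM in washout 1, 2 and 3. Fc-JAG1 3 was the lowest, and washout 2 lay below Fc-JAG1 1, so the groups overlapped. Its fitted log2 fold change was −1.22 ± 0.63 (SE) for Fc-JAG1 over washout (edgeR adjusted p = 0.828) and −0.36 ± 0.64 (SE) for compE over washout. Of the 9 members other than Actb, Arpc1b was the 1 that DESeq2's Wald test, the test of the study, called in any comparison: −1.61 ± 0.54 (SE) for Fc-JAG1 over washout, adjusted p = 0.0178. In DESeq2 this call was lost without washout 3 (−1.25, adjusted p = 0.0821) and with no replicate block (adjusted p = 0.409). Without Fc-JAG1 3 the value was −1.18. Either omission takes the libraries numbered 3 out of the contrast, so the fits without Fc-JAG1 3 and without washout 3 are not separate results. Pdap1, which overlaps the gene, had 1748 and 1801 counts in Fc-JAG1 1 and 3, 0 and 3981 counts in compE 1 and 2, and 0, 771 and 2910 counts in the washout libraries 1, 2 and 3, and its part in the difference was not tested.

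Myl6 encodes the essential light chain of non-muscle and smooth muscle myosin (ENSMUSG00000090841, chromosome 10, 128490860 to 128494145). It had 75.6 and 25.2 CPM in Fc-JAG1 1 and 3, 19.5 and 17.1 CPM in compE 1 and 2, and 48.7, 34.3 and 27.0 CPM in washout 1, 2 and 3. Both compE libraries were below every other library, and Fc-JAG1 1 was the highest. The log2 fold change of compE over washout was −1.27 ± 2.49 (SE), with a 95% interval from −6.42 to 3.88. The compE libraries stayed below the washout on all 3 scales. For Fc-JAG1 over washout the value was 0.35 ± 2.35 (SE).

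Coro1a encodes coronin 1A, the coronin of leukocytes (ENSMUSG00000030707, chromosome 7, 126699773 to 126707787). It had 698 and 697 CPM in Fc-JAG1 1 and 3, 784 and 489 CPM in compE 1 and 2, and 16.3, 674 and 1141 CPM in washout 1, 2 and 3. In 6 libraries it lay between 489 and 1141 CPM, and in washout 1 it had 280 counts. The log2 fold change was 0.77 ± 1.20 (SE) for Fc-JAG1 over washout and 0.96 ± 1.19 (SE) for compE over washout, and both signs rest on single libraries. Without washout 1 they were −0.60 and −0.45, without Fc-JAG1 1 the first was −0.71, and without compE 1 the second was −0.48.

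Across the members, the test over all genes called none. Under edgeR's quasi-likelihood test with the replicate block, none of the other 9 members had an adjusted or an unadjusted p under 0.05, and 0% of the 10311 genes tested were called in each of the 3 comparisons. Unadjusted p-values under 0.05 were reached by 5.1% of genes (526) for Fc-JAG1 over washout, 2.63% (271) for compE over washout and 2.83% (292) for Fc-JAG1 over compE. The smallest unadjusted p among the other 9 members was 0.0648 (Arpc1b) for Fc-JAG1 and 0.112 (Arpc2) for compE, both in edgeR's model of all genes. DESeq2 called 5.11% of eligible genes lower and 16.9% higher with Fc-JAG1 than in the washout, against 1 of the other 9 members lower and 0 higher. With compE it called 3.92% lower and 6.06% higher, and 0 of the other 9 members. For Fc-JAG1 over compE it called 2.58% lower and 10.7% higher, and 0 of the other 9 members.

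Over all genes tested, the median log2 fold change was 0.44 for Fc-JAG1 over washout, −0.10 for compE over washout and 0.43 for Fc-JAG1 over compE, so a member at 0 with Fc-JAG1 stands below the typical gene. With Fc-JAG1, 7 of 10 members had a fitted value below 0 and 8 of 10 were below that median. These counts include Actb, which was low by choice, and the median over the members without Actb was −0.11. Of all genes tested, 41.0% lay below the −0.11 of Pfn1. With compE, 5 of 10 were below 0 and 5 of 10 below the median of all genes, Actb again among them, and the median without Actb was 0.06. Of all genes tested, 49.6% lay below the −0.11 of Tmsb4x. Measured from the median of all genes, the members other than Actb ran from −3.30 (Tmsb10) to 3.26 (Actg1) with Fc-JAG1 and from −1.54 (Arpc2) to 1.06 (Coro1a) with compE. On the scale of DESeq2's size factors the median of all genes with Fc-JAG1 was 0.07, and with total counts only it was 0.71.

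**Figure D3:**
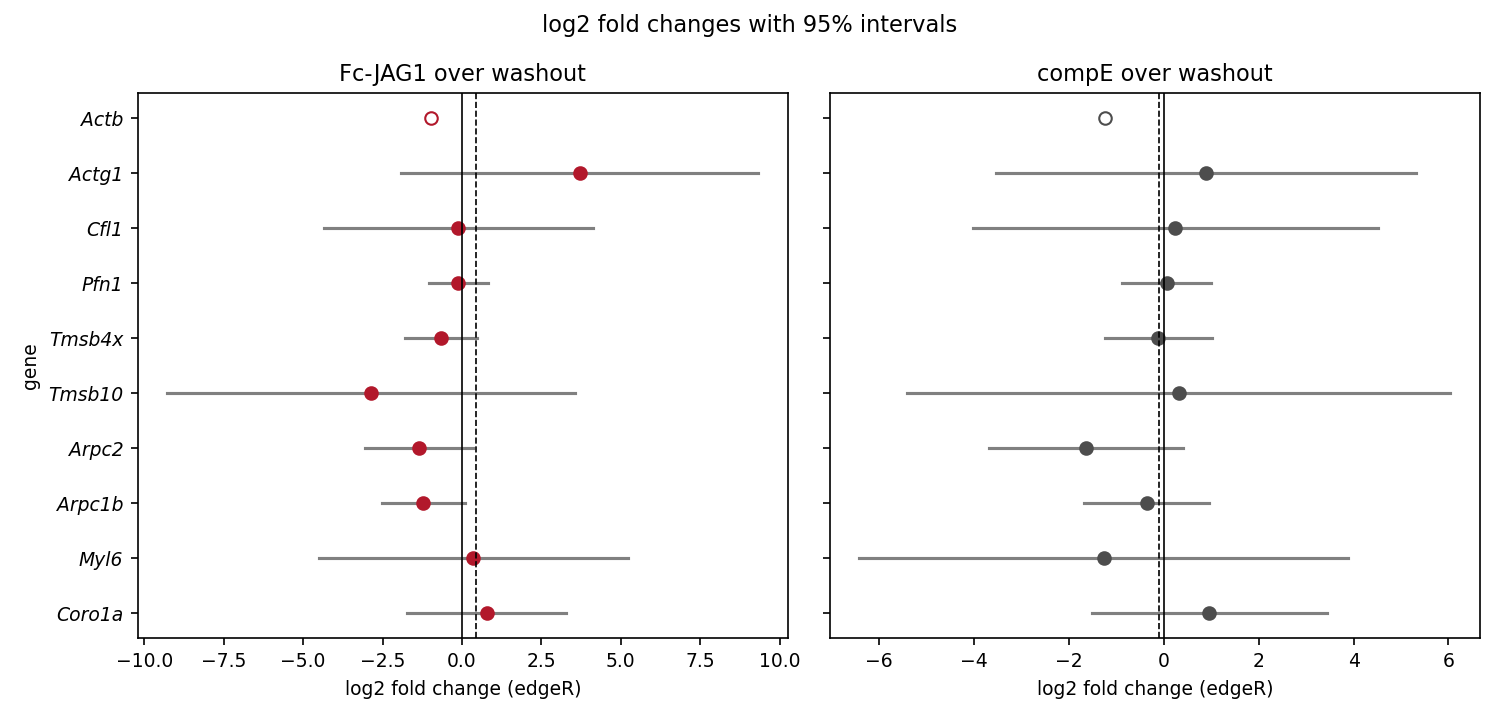
Log2 fold changes from edgeR for Fc-JAG1 over washout (left) and compE over washout (right), 1 row per gene. Bars are 95% intervals, the solid line is 0 and the dashed line is the median of all 10311 genes tested (0.44 and −0.10). Actb is an open point with no interval because the gene was chosen by these values, and the intervals of the other 9 genes all include 0.

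The groups separated completely for few members. With Fc-JAG1, 6.85% of genes tested had both libraries below all 3 washout libraries and 10.5% had both above. Beside Actb, Tmsb10 was the 1 member in the first class and no member was in the second. With compE, 6.79% of genes were below and 10.9% above, and beside Actb the members were Myl6 below and Cfl1 above. Between the treatments, 15.4% of genes had both Fc-JAG1 libraries below both compE libraries (Cfl1 and Tmsb10 among the members) and 15% had them above (Myl6). Of these, Myl6 against compE and Myl6 between compE and washout kept their separation when scaled by total counts and with DESeq2's size factors.

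In the comparison of Fc-JAG1 with compE, which asks whether the ligand and the inhibitor leave these genes at different levels, the best determined members had the narrowest intervals around small values. Pfn1 had −0.17 ± 0.50 (SE), with a 95% interval from −1.21 to 0.87, Tmsb4x had −0.55 with an interval from −1.81 to 0.71 and Arpc1b had −0.86 with an interval from −2.36 to 0.64. Larger values had wide intervals: Tmsb10 −3.17, from −9.08 to 2.75, Myl6 1.62, from −4.35 to 7.59, and Actg1 2.83, from −2.46 to 8.11. All adjusted p-values of the members other than Actb were 1 (edgeR). The intervals leave room for differences of several-fold in either direction for most members, and a p that misses the threshold does not show that the treatments act alike.

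Ratios of raw counts within a library need no scaling. The ratio of Pfn1 to Tmsb4x was the steadiest of 9 computed: 1.44 and 1.70 in Fc-JAG1 1 and 3, 1.11 and 1.45 in compE 1 and 2, and 0.850, 1.39 and 1.25 in the washout libraries 1, 2 and 3, a spread of 2.00 times between the lowest and the highest. Arpc2 and Arpc1b both encode subunits of the Arp2/3 complex. The ratio of their counts was 1.02 and 0.491 in Fc-JAG1 1 and 3, and 0.212 and 0.894 in compE 1 and 2. In the washout libraries 1, 2 and 3 it was 1.26, 0.837 and 0.794. The 2 gene-poor treated libraries were the lowest, and the spread was 5.95 times. Actb over Pfn1 was 1.52 and 0.556 with Fc-JAG1, 0.842 and 1.04 with compE and 3.62, 1.51 and 1.10 in the washout, so by this ratio Fc-JAG1 1 lay within the washout and the other treated libraries below it. Actb over Tmsb4x was 2.20 and 0.946 with Fc-JAG1, 0.931 and 1.51 with compE and 3.08, 2.10 and 1.379 in the washout. Actb over Arpc2 was 2.49 and 4.09 with Fc-JAG1, 6.003 and 1.70 with compE and 1.72, 3.74 and 1.94 in the washout. By both ratios the treated and washout libraries overlapped. Tmsb10 over Tmsb4x spread 49.7 times and Coro1a over Arpc1b 150 times.

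**Figure D4:**
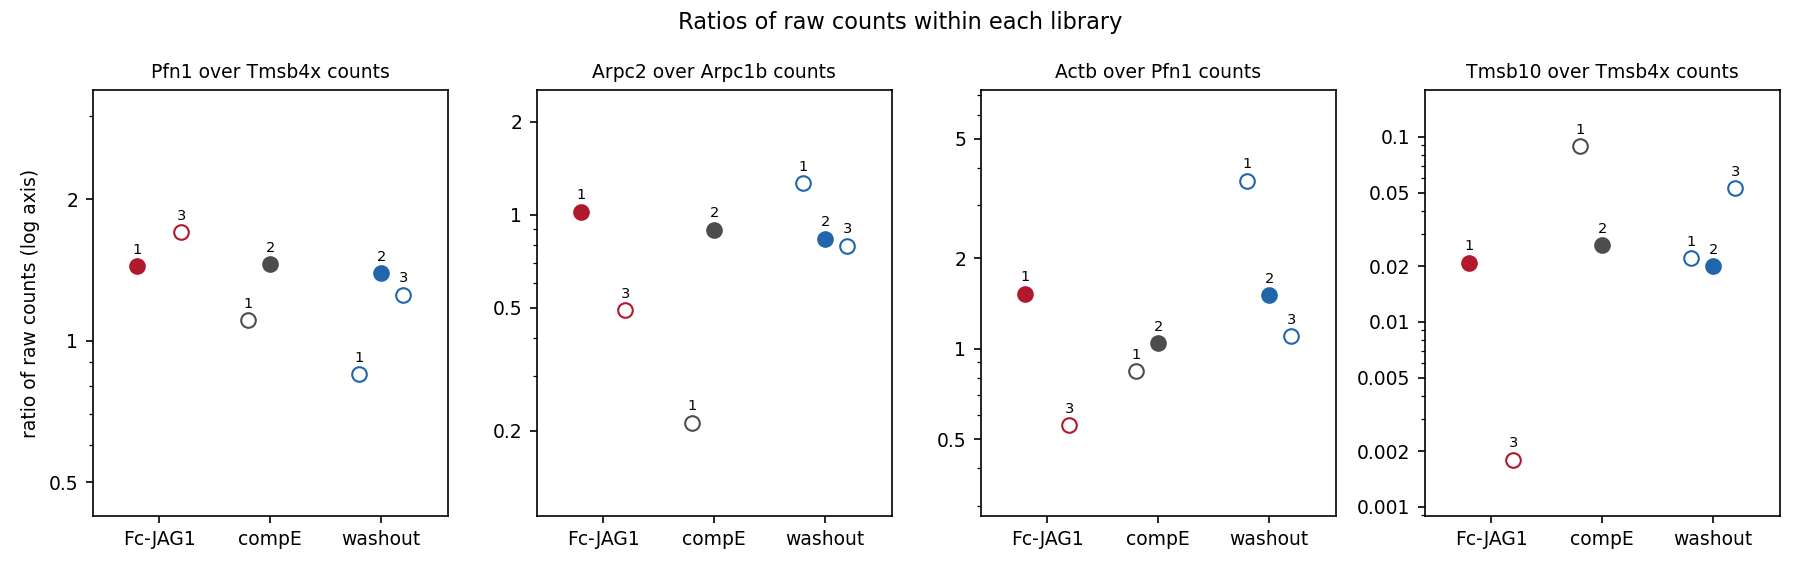
Ratios of raw counts of 4 pairs of genes within each library (log axes), in Fc-JAG1, compE and washout libraries, with library numbers and filled points for the gene-rich library of each group. Pfn1 over Tmsb4x stays within 0.850 to 1.70, while Arpc2 over Arpc1b is lowest in compE 1 (0.212) and Tmsb10 over Tmsb4x in Fc-JAG1 3.

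In the gene-rich libraries alone, 1 per group and so with no replicate, the folds of Fc-JAG1 1 over washout 2 lay between 0.859 (Tmsb4x) and 1.35 (Arpc2) for 8 of the 10 genes, with Actb at 0.899, Pfn1 at 0.889, Cfl1 at 1.14, Arpc1b at 1.10 and Coro1a at 1.04. The exceptions were Actg1 at 1.72 and Myl6 at 2.20. With compE 2 over washout 2 the folds were wider, between 0.498 (Myl6) and 1.52 (Actg1), with Actb at 0.504, Tmsb4x at 0.699, Coro1a at 0.726, Pfn1 at 0.730, Arpc2 at 1.11 and Cfl1 at 1.24.

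Over the 7 libraries, the log2 CPM of Actb correlated best among the members with Arpc2 (Pearson's r = 0.85), Arpc1b (0.78), Myl6 (0.61) and Tmsb10 (0.53), while r was −0.03 with Pfn1, 0.02 with Actg1 and −0.39 with Coro1a. The 45 pairs of members ran from −0.49 to 0.87 with a median of 0.15, and the median r of Actb with all genes tested was −0.03. The libraries share their preparation and differ in genes detected, so these values describe 7 points and no more. Outside the members, the 5 genes with the highest r to Actb were Uchl3 (0.97), a ubiquitin hydrolase, Lgals3 (0.97), galectin-3, Tyrobp (0.97), a signaling adaptor of myeloid and NK cell receptors, Nprl2 (0.96), a subunit of the GATOR1 complex, and Tmem263 (0.94).

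These 5 had fitted log2 fold changes from −4.17 to −2.06 with Fc-JAG1 and from −7.60 to −2.15 with compE, with wide errors. The genes were picked by likeness to Actb, so these values are a description and carry no test. Tyrobp had 96.0 and 17.4 CPM in Fc-JAG1 1 and 3, 33.8 and 39.1 CPM in compE 1 and 2, and 355, 154 and 247 CPM in washout 1, 2 and 3. Lgals3 had 197 and 8.94 CPM with Fc-JAG1, 28.4 and 63.3 CPM with compE, and 605, 180 and 217 CPM in the washout, where washout 2 lay below Fc-JAG1 1. Genes picked by likeness to Actb share its order by that choice, so their values are no independent support for it. Since Lgals3 and Tyrobp are high in macrophages, the 10 macrophage markers were summed: they came to 565 and 135 CPM of total counts with Fc-JAG1, 91.9 and 414 with compE and 416, 518 and 373 in the washout. Of these markers C1qa was at 0 in 6 libraries, C1qb at 0 in 6 and Mrc1 at 3 counts or fewer in all 7, while Lyz2 reached 13012 counts in Fc-JAG1 1. Of 5 macrophage markers tested, DESeq2 called 3 lower with compE than in the washout (Lyz2, Ctss and Mertk, beside 3.92% of all genes) and 0 with Fc-JAG1. Csf1r and Cd68, also tested, were not called, and their edgeR log2 fold changes with compE were 0.56 and −0.06. Lyz2 and Ctss were at 0 and 3 counts in compE 1 but at 158 and 20.5 CPM of total counts in compE 2, and Mertk had 1 to 54 counts in the libraries. Their part in the Actb values was not tested. Markers of mesenchyme and smooth muscle (11), of neural cells (8) and of epithelium (7) summed to at most 25.2, 26.1 and 21.7 CPM of total counts in any library. The 10 erythroid markers were uneven, with 163 and 82.8 CPM of total counts with Fc-JAG1, 22.8 and 151 with compE and 20.1, 451 and 39.0 in the washout, and their part was not tested either.

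Of 113 other genes of the actin pathway, 94 could be tested. With Fc-JAG1, edgeR called 0 of these, 3 had an unadjusted p under 0.05, and DESeq2 called 14 of 93 eligible genes higher (15.1%) and 4 lower (4.30%), against 16.9% and 5.11% of all genes. With compE, edgeR called 0, none had an unadjusted p under 0.05, and DESeq2 called 6 of 91 higher (6.59%) and 4 lower (4.40%), against 6.06% and 3.92%. For Fc-JAG1 over compE, edgeR called 0, 2 had an unadjusted p under 0.05, and DESeq2 called 8 of 87 higher (9.20%) and 1 lower (1.15%), against 10.7% and 2.58%. These shares lie near those of all genes. The median log2 fold change was 0.11 with Fc-JAG1 and −0.41 with compE, beside 0.44 and −0.10 for all genes.

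Among the other actins, only Acta2, smooth muscle α-actin, could be tested. It had 1 and 0 counts in Fc-JAG1 1 and 3, 527 and 1 counts in compE 1 and 2, and 0, 52 and 416 counts in the washout libraries 1, 2 and 3, so it reached 10 counts in 3 libraries of 2 groups. DESeq2 called Acta2 lower with Fc-JAG1. Of the genes for monomer binding and turnover (7 tested), Cfl2, muscle-type cofilin, had 61.2 and 145 CPM with Fc-JAG1, 48.8 and 32.8 CPM with compE, and 0, 8.54 and 0 CPM in washout 1, 2 and 3, and DESeq2 called it higher with both treatments. Its fitted log2 fold change in edgeR was 6.15 ± 3.37 (SE) with Fc-JAG1, adjusted p = 0.828, and 4.37 ± 2.90 (SE) with compE, adjusted p = 1. DESeq2 also called Cap2 higher and Cap1 lower with compE, and Cap1, a cyclase-associated protein, had 0 counts in compE 1 but 134 CPM in compE 2. Dstn, destrin, ranged between 0.0395 CPM (compE 1) and 335 CPM (washout 3). In edgeR, Cap2 (4.29 ± 2.22, SE, with compE) and Gmfb (−3.96 ± 3.70, SE, with compE) were the others with the smallest p. The median of this list was 0.26 with Fc-JAG1 and −0.60 with compE.

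The other Arp2/3 subunits (7 tested) gave 1 DESeq2 call, Arpc5l, higher with Fc-JAG1. It had 118 and 442 CPM in Fc-JAG1 1 and 3, 0.158 and 145 CPM in compE 1 and 2, and 1.34, 112 and 235 CPM in washout 1, 2 and 3, where washout 3 lay above Fc-JAG1 1. Arpc4 had 440 and 227 CPM with Fc-JAG1 against 609, 340 and 606 CPM in the washout, a log2 fold change of −0.76 ± 1.09 (SE). Arpc5 was low in 1 library, compE 1, with 13.1 CPM against 171 CPM or more in the other 6. The list's median was −0.17 with Fc-JAG1 and −0.88 with compE, and with compE Actr2 (0.98) and Arpc1a (0.54) lay above 0.

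Nucleation promoting factors, which switch the Arp2/3 complex on, were all measured (14 of 14). DESeq2 called Wasf1, Cyfip1 and Cyfip2 higher and Wasf2 lower with Fc-JAG1, and Cyfip1 higher and Brk1 and Nckap1l lower with compE, members of the WAVE complex. Cyfip1 had 130 and 80.2 CPM with Fc-JAG1, 121 and 143 CPM with compE and 0.348, 139 and 0.107 CPM in the washout, so washout 2 matched the treated libraries while washout 1 and 3 were near 0. Brk1 had 0 counts in compE 1 and 169 CPM in compE 2, against 182 to 188 CPM in the washout. Wasf2 had 211 and 118 CPM with Fc-JAG1 against 594, 253 and 407 CPM in the washout, below all of them, with compE at 619 and 281 CPM. Hcls1, a cortactin relative of blood cells, had 94.7 and 80.1 CPM with compE against 458, 201 and 440 CPM in the washout and was not called (−1.86 ± 1.59, SE, edgeR adjusted p = 1).

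Formins, which build unbranched filaments, were all measured too (9 of 9), with medians of −0.44 with Fc-JAG1 and −0.43 with compE. DESeq2 called Fmnl2 higher and Fmnl1 lower with Fc-JAG1 and none with compE. Fmnl1, the formin of leukocytes, had 212 and 151 CPM with Fc-JAG1 against 655, 150 and 590 CPM in the washout, where washout 2 lay beside the treated libraries. Fmnl2 had 11.8 and 433 CPM with Fc-JAG1 and 0.406, 53.3 and 0.784 CPM in the washout. Fhod1 was at 0 counts in both compE libraries and had 0, 12 and 44 counts in the washout, and setting it at the floor of 3 counts over the compE group left the median at −0.43. Diaph3 was at 1.34 CPM in washout 1 and at 65.7 CPM or more in the other 6 libraries.

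Capping and severing genes (8 tested) had medians of 0.08 with Fc-JAG1 and −0.37 with compE, and DESeq2 called Capg higher with Fc-JAG1. Capg had 58.2 and 28.3 CPM with Fc-JAG1, 0.0791 and 50.7 CPM with compE and 0, 21.5 and 104 CPM in the washout, so the groups overlapped. The coronins other than Coro1a (5 tested) had medians of 1.48 with Fc-JAG1 and 0.39 with compE, and DESeq2 called Coro1b and Coro7 higher with Fc-JAG1 and Coro1b higher with compE. Coro7 had 85.9 and 123 CPM with Fc-JAG1, 0 and 37.4 CPM with compE and 0, 10.7 and 0 CPM in the washout. Coro1b had 106 and 425 CPM with Fc-JAG1, 99.5 and 115 CPM with compE and 0, 65.4 and 2.89 CPM in the washout. In both genes washout 2 held nearly all of the washout counts. Coro1a, in contrast, was low in washout 1 only.

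Crosslinkers and membrane linkers (13 tested) had medians of 0.12 with Fc-JAG1 and −0.29 with compE, with 1 DESeq2 call, Ezr (ezrin), higher with Fc-JAG1. Ezr had 132 and 142 CPM with Fc-JAG1, 0.237 and 102.5 CPM with compE, and 0.0581, 115 and 488 CPM in the washout. Tln1, talin, had a log2 fold change of −0.68 ± 0.70 (SE) with Fc-JAG1. Non-muscle myosin II and tropomyosins (5 tested) had no DESeq2 call, with medians of 0.01 with Fc-JAG1 and −0.71 with compE. Myh9, the heavy chain that pairs with Myl6, had 365 and 484 CPM with Fc-JAG1, 286 and 355 CPM with compE and 759, 358 and 836 CPM in the washout, a log2 fold change of −0.77 ± 0.96 (SE) with Fc-JAG1 and −0.71 ± 1.01 (SE) with compE.

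SRF, its cofactors and the SRF target Egr1 (6 tested) had the highest median with Fc-JAG1, 3.06, against −0.61 with compE. DESeq2 called Elk1, Elk4 and Egr1 higher with Fc-JAG1, as it did 16.9% of all eligible genes. Elk1 had 11.4 and 61.5 CPM in Fc-JAG1 1 and 3, against 0, 26.1 and 0 CPM in washout 1, 2 and 3. Elk4 had 10.7 and 33.4 CPM with Fc-JAG1, against 0, 2.30 and 0 CPM in the washout. Egr1 had 63.2 and 0 CPM with Fc-JAG1 against 0, 35.4 and 257 CPM in the washout, so its highest library was a washout one. Mrtfa had 91.9 and 1007 CPM with Fc-JAG1, 356 and 102.2 CPM with compE and 21.4, 106 and 15.6 CPM in the washout. Srf itself had 56.4 and 0 CPM with Fc-JAG1, 22.4 and 39.4 CPM with compE and 409, 33.1 and 0 CPM in the washout, so the order of the libraries differed between the factor and its cofactor.

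**Figure D5:**
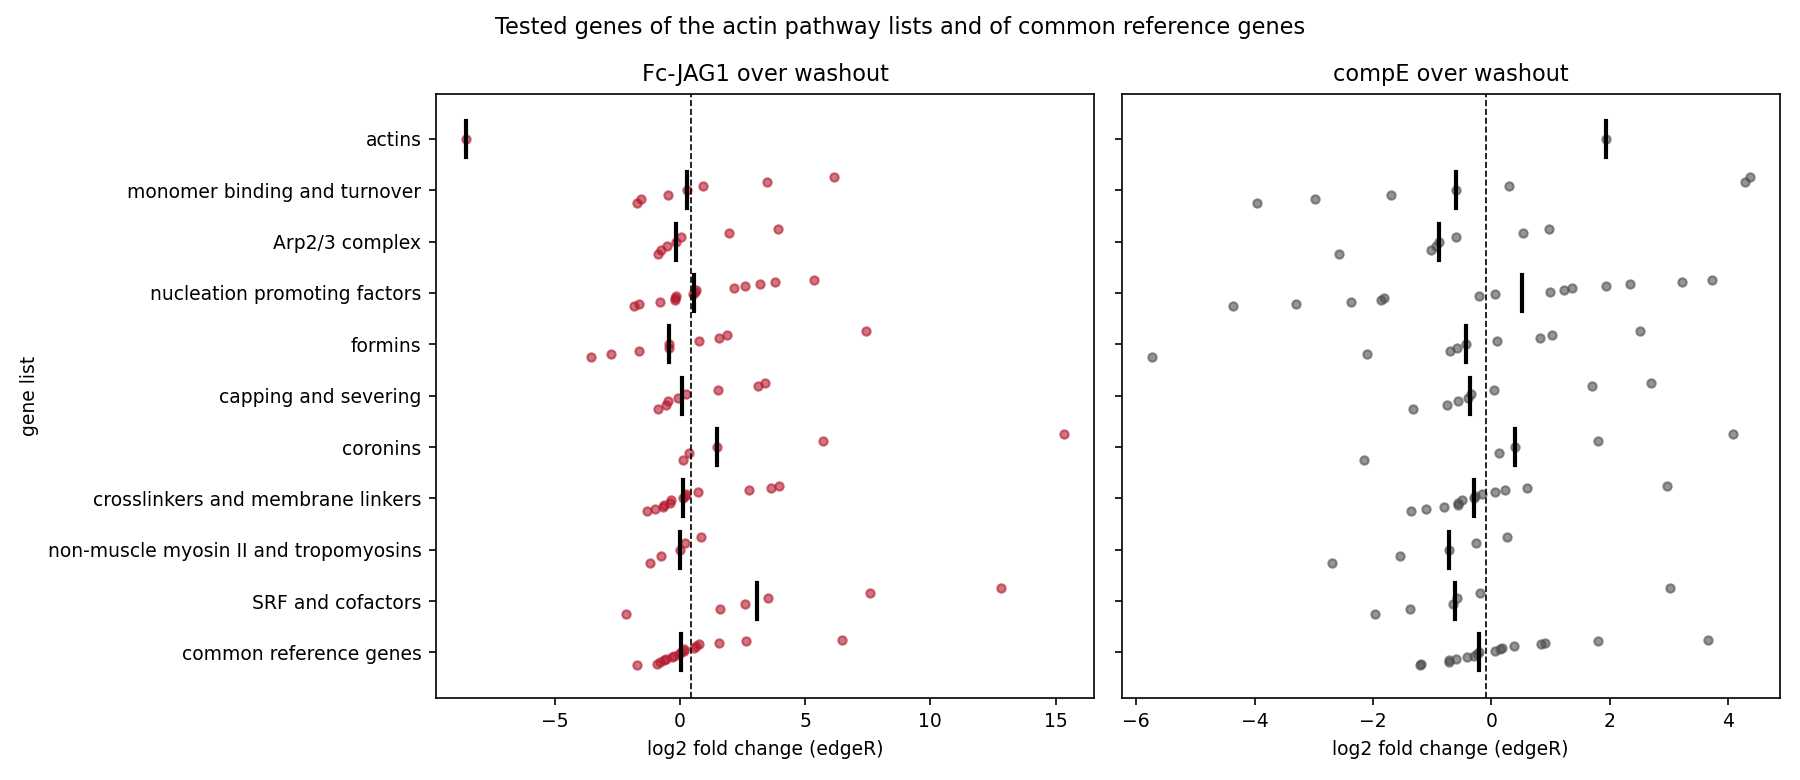
Log2 fold changes (edgeR) of the tested genes of 10 actin pathway lists and of common reference genes, for Fc-JAG1 over washout (left) and compE over washout (right). Points are genes, thick bars are list medians and the dashed line is the median of all genes tested. Most list medians lie within 1 of the dashed line, the SRF list with Fc-JAG1 being the farthest among lists with more than 1 gene.

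Actb is often used as a reference gene for expression, so 17 tested genes of that use were set beside it. Their median log2 fold change was 0.04 with Fc-JAG1 and −0.21 with compE, beside −0.97 and −1.24 for Actb. Values near those of Actb were also found in the list: Ppia had −0.80 with Fc-JAG1 and −1.21 with compE, and Pgk1 had −0.93 with Fc-JAG1 and −0.71 with compE. The highly captured ones among them with the smallest p were Eef2, elongation factor 2, at −0.57 ± 0.28 (SE) with Fc-JAG1, and Tubb5, a β-tubulin, at −0.28 ± 0.37 (SE) with compE, and edgeR called neither. Eef2 had 1664 and 1334 CPM with Fc-JAG1, 2979 and 1752 CPM with compE, and 2637, 1583 and 1826 CPM in the washout. Tubb5 had 1348 and 2070 CPM with Fc-JAG1, 1243 and 1124 CPM with compE, and 1457, 1619 and 1445 CPM in the washout. Sdha, an enzyme subunit of the citric acid cycle, was the 1 gene of the list that DESeq2 called, higher with Fc-JAG1, and it had 253 and 732 CPM with Fc-JAG1 against 7.55, 172 and 0 CPM in the washout. Hprt and Polr2a were at 0.392 CPM in washout 3 and 0.174 CPM in washout 1, so that such genes too were nearly lost from single libraries.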

How the data were processed

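The authors trimmed reads with cutadapt 4.2, aligned them with STAR 2.7.8 to GRCm38 and kept uniquely mapped reads. Raw counts per gene, as deposited by the authors, were made with featureCounts (Subread 2.0.1), and the filtered counts keep 10311 genes. The authors' variance-stabilized values and Fc-JAG1 2 were not used here. Libraries carry no molecular identifiers, p-values measure the spread between libraries, and no count interval is given.

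edgeR 4.0.16 in R 4.3.3 tested the counts of all filtered genes by quasi-likelihood after TMM scaling, with terms for sample number and condition, with Benjamini-Hochberg adjustment and a threshold of 0.05. The SE is the log2 fold change over the root of F. DESeq2 1.42.0 (Wald test, local dispersion fit, same terms) was an alternative. DESeq2 calls needed at least 10 counts in at least 2 libraries of 1 of the conditions compared. Same-numbered libraries' deviations from their group means correlated at −0.0854 to 0.0915, and those of differently numbered libraries at −0.0964 to 0.0964. These values show no pairing, and in a group of 2 libraries the deviations mirror each other. The block follows the study, which treats its samples as paired. Both tests were tried on simulated counts, for Fc-JAG1 over washout only and with no effect of sample number. The check required success only at a dispersion far below the common edgeR dispersion of these data (2.42). It therefore does not show how well the tests perform here. Symbols and gene coordinates came from GENCODE M21 (GRCm38), promoters from RefSeq, and figures from matplotlib.

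The members and lists were chosen with earlier results of these data known. Named genes are the 10 members, per list the 3 with the smallest p in each comparison with the washout (a part of them is given), genes called by DESeq2, and the 5 most like Actb. Markers and Pdap1, Snx32, Bola2, Gm12715, Cyfip2, Arpc1a, Ppia and Pgk1 were named after their values were seen. A few items, among them 1 pathway list that enters the pathway totals, are not reported here.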

Additional observations from a re-analysis of the deposited data

How the results depend on the processing

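edgeR called 0 genes in each comparison with other scalings, with no filter on low counts and without any 1 library, and 1 gene with Fc-JAG1 over washout when the replicate block was dropped (0 in the other comparisons). DESeq2 called 2108 genes for Fc-JAG1 over washout, 962 for compE over washout and 1175 for Fc-JAG1 over compE. In added fits chosen after seeing the data, DESeq2 called 0 to 3 of the members other than Actb for Fc-JAG1 over washout without 1 library, 0 to 1 for compE over washout and 0 to 2 for Fc-JAG1 over compE, and 0 with no replicate block. Over all genes these fits without 1 library called 1800 to 2960 for Fc-JAG1 over washout, 64 (without compE 1) to 2329 for compE over washout and 701 to 2001 for Fc-JAG1 over compE, and those with no replicate block 388, 325 and 190. The 3 were Tmsb10, Arpc2 and Arpc1b without Fc-JAG1 1 and Tmsb4x, Tmsb10 and Arpc1b without washout 1, and the 1 with compE was Arpc2, without compE 2 or washout 2. Arpc1b for Fc-JAG1 over washout ran from −2.10 to −1.18 in these fits without 1 library. Without washout 1, the 3 members called for Fc-JAG1 over washout, all lower, stood beside 2960 calls among the 10311 genes tested. The calls over all genes were not split by direction in these fits. Whether members were called more often than other genes was not tested, so these calls do not single out the actin genes.

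Signs of log2 fold changes turned in several cases. For Fc-JAG1 over washout, total counts gave 0.14 for Cfl1 and 0.12 for Pfn1, DESeq2 gave −0.038 and its size factors −0.037 for Myl6. For compE over washout, Pfn1 was −0.040 with DESeq2, −0.040 with its size factors and −0.17 with no replicate block. For Fc-JAG1 over compE, no replicate block gave −0.0023 for Actg1, 0.028 for Pfn1 and 0.13 for Coro1a, total counts gave 0.11 for Pfn1 and 0.11 for Coro1a, and Arpc2 was −0.011 with DESeq2 and −0.013 with its size factors.

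Leaving out 1 library gave, for Fc-JAG1 over washout, −0.68 to 0.35 for Cfl1, −0.70 to 0.44 for Pfn1, −0.10 to 0.71 for Myl6 and −0.71 to 3.10 for Coro1a. For compE over washout it gave −0.47 to 0.54 for Pfn1, −0.54 to 0.26 for Tmsb4x, −1.003 to 1.22 for Tmsb10, −3.45 to 0.13 for Arpc2, −0.76 to 0.032 for Arpc1b and −0.48 to 3.26 for Coro1a. For Fc-JAG1 over compE it gave −0.63 to 0.69 for Actb, −0.97 to 0.59 for Pfn1, −1.19 to 0.053 for Tmsb4x, −1.93 to 1.61 for Arpc2 and −3.16 to 2.80 for Coro1a. The cause was not tested. With 2 or 3 libraries a group, differences inside the members' 95% intervals were not detectable.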
